A study of Mus musculus with 11 samples.

Results

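Type I interferon-stimulated antiviral genes were examined in the mouse airway after ovalbumin (OVA) and lipopolysaccharide (LPS), with and without GGsTop. The genes were chosen by symbol from a list of 42, and 40 of them were matched among the 21899 genes of the deposited table. The rule of the list used no measured value of a group, but the list was chosen with earlier results of these data known. Mx1 and Mx2 were not analysed here. The values are FPKM, fragment counts scaled to the length of each gene and the depth of each library.

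RNA-seq was performed on 3 PBS, 4 OVA/LPS/Vehicle (OL) and 4 OVA/LPS/GGsTop (OLG) libraries from male BALB/c mice of 6 to 8 weeks, labelled wild type. Nonsensitized PBS mice were given PBS alone. OL and OLG mice were sensitized intraperitoneally with OVA in alum on days 0 and 7, challenged with intranasal OVA from day 14 to day 17, and given intranasal LPS on days 19 and 21. GGsTop, which inhibits γ-glutamyl transferase and thereby the breakdown of extracellular glutathione, was delivered into the trachea of OLG mice at 0.5 mg/kg on days 21, 22 and 23, and OL mice received the vehicle on these days. All tissue was taken on day 25. The labels name the tissue as trachea, whereas the methods of the study describe larger airways dissected from the parenchyma without the trachea. The OL libraries carry the numbers 12, 34, 56 and 78, and whether each stands for a pool of mice is not stated, nor is it stated that the other libraries are single mice. The p-values therefore measure the spread between these libraries. Below, values of single libraries are given in the order PBS 1, 2 and 3, OL 12, 34, 56 and 78, and OLG 1, 2, 3 and 4.

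Type I interferons are secreted when a cell senses viral or bacterial nucleic acid or LPS. They bind the receptor IFNAR1/IFNAR2, whose kinases JAK1 and TYK2 phosphorylate STAT2. With IRF9 it takes part in the complex ISGF3, which binds the interferon-stimulated response element in the promoters of the genes described here. The induced proteins sense viral RNA, block its translation, degrade it, hold virions at the membrane or carry the signal further, and in the airway they are known as a first barrier to respiratory viruses. Interferon-γ acts through its own receptor and shares part of the target genes.

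The letters of the response element were searched as GAAA, any 2 bases and GAAA again on both strands of the RefSeq promoters (250 bases before to 50 after the start, build GRCm38.p6), where overlapping matches were counted separately. Of the interferon-stimulated genes, 32 had a promoter in the table and 16 of these (50%) held at least 1 match, against 1079 of 27025 genes (3.99%). There were 25 matches in these 16 genes, and 8 genes held 2 or more. Ifit1, Ifit3 and Rsad2 (viperin) encode antiviral proteins, Isg15 a ubiquitin-like modifier, Bst2 (tetherin) a membrane tether of virions, and Oas1a and Oas1g members of the oligoadenylate synthetase family. Their upstream stretches are printed 5′ to 3′ along the transcribed direction to show how the matches are laid out, with every matching base in capitals (TTTC, 2 bases and TTTC is the same motif on the other strand):
Isg15, chr4:156200847-156200936, minus strand: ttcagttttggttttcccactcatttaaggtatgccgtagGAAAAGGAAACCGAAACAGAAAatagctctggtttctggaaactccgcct
Ifit1, chr19:34640745-34640834, plus strand: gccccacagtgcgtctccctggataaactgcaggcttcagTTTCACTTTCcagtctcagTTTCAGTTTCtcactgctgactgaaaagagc
Ifit3, chr19:34583333-34583422, plus strand: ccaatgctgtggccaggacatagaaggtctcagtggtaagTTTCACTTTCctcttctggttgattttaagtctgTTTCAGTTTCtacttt
Ifit3b, chr19:34607729-34607818, plus strand: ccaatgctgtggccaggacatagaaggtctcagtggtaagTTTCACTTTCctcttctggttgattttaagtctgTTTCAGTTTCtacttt
Rsad2, chr12:26456523-26456612, minus strand: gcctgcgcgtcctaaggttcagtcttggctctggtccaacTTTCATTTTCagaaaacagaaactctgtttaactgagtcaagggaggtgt
Bst2, chr8:71537553-71537642, minus strand: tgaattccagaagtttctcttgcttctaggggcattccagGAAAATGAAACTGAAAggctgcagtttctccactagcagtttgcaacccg
Oas1a, chr5:120907526-120907585, minus strand: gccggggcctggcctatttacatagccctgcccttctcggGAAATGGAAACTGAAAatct
Oas1g, chr5:120887614-120887671, minus strand: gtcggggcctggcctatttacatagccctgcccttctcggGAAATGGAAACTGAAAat

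In Isg15, 3 overlapping matches formed a single run of the repeated unit, and the matches of Bst2, Oas1a and Oas1g also overlapped. The stretches of Ifit3 and Ifit3b were identical at 90 of 90 bases, and those of Oas1a and Oas1g at 57 of 58. These pairs are close copies, so that the fragments of one may have been counted for the other and their values are uncertain. The other genes with a match were Ifih1, Ddx58, Cxcl10, Oas3, Ifitm2, Ifitm3, Stat2 and Eif2ak2. A match describes the letters of the window and shows neither binding nor a cause of the values below.

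**Figure D1:**
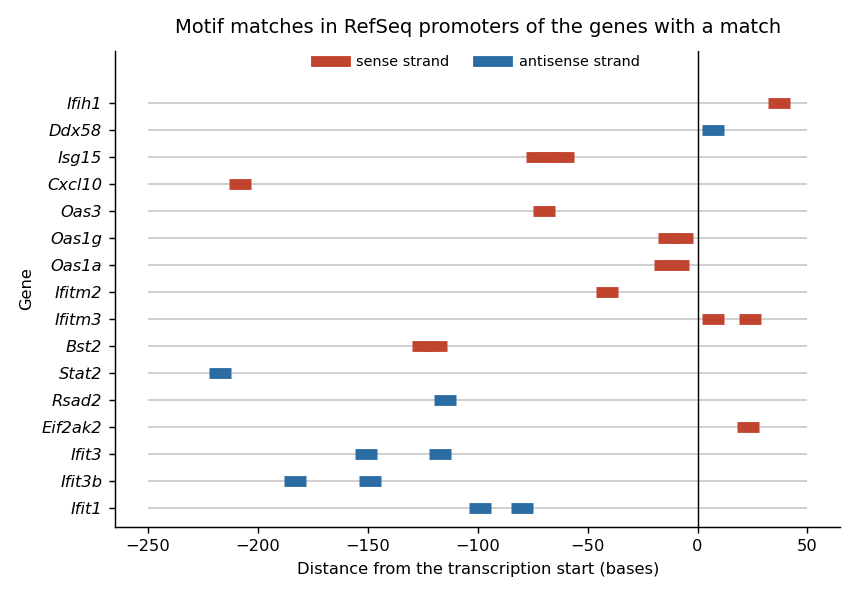
Position of each match of the response element letters (coloured block) in the 16 interferon-stimulated genes with a match, as the distance in bases from the transcription start (x axis), red for the sense and blue for the antisense strand; grey lines mark the window searched. In 12 genes at least 1 match lies wholly before the start, and the blocks of Isg15, Bst2, Oas1a and Oas1g run together.

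The deposited FPKM correspond to 14513136 to 18632382 fragments per library, and PBS 3 was the deepest. The library PBS 3 also stood apart in GC content: its levels increased with the GC content of the gene by 0.533 log2 units per 10 percentage points, against 0.048 to 0.061 in the other PBS libraries, -0.26 to -0.19 in OL and 0.046 to 0.108 in OLG. A slope on GC content therefore moved with the groups, and the counts over the list and its median in each comparison are also given after this slope was removed in every library (GC-corrected). OL 12 held markers of immature thymocytes, with 23.6 FPKM summed over 4 of 4 genes against at most 0.348 in any other library. Of these, Rag1, Rag2 and Dntt were highest in OL 12, while Ptcra was at 0.151 FPKM there and at 0.161 in OLG 2. Thyroid markers (3 of 3) summed to 92.0, 171 and 309 FPKM in OL 12, 34 and 56 and to at most 1.52 in the other libraries. Cardiac muscle markers (3 of 3) ranged from 4.85 to 439 FPKM in PBS, 185 to 296 in OL and 122 to 604 in OLG. The club cell marker Scgb1a1 was at 26145 to 47905 FPKM, while cartilage markers, which define the tracheal wall, summed to 0.221 FPKM in PBS 3, 0.721 in OLG 1 and 0.327 in OLG 3, against 6.59 to 43.0 in the other libraries.

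All 40 genes passed the filter of a mean of 0.5 FPKM over the 11 libraries, which 14004 genes did. Their mean level was lower in every OLG library than in any PBS or OL library. The mean log2(FPKM + 1) over the 40 genes was 3.40, 3.26 and 3.29 in PBS, 3.49, 3.24, 3.22 and 3.31 in OL, and 3.05, 3.12, 3.13 and 3.01 in OLG, while the mean of all genes tested was 2.98 to 3.11, 3.05 to 3.11 and 3.04 to 3.11 in these groups. The mean over the list was highest of all libraries in OL 12, which also held the thymocyte markers. Over the 11 libraries the sum of these markers had a Spearman coefficient of 0.36 with that mean, and their part in it was not tested. The OLG libraries also lay below OL without OL 12.

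**Figure D2:**
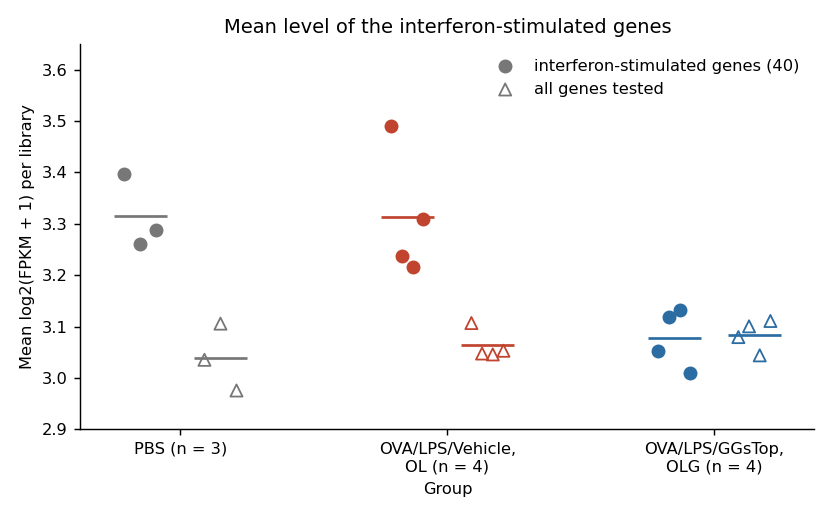
Mean log2(FPKM + 1) per library (y axis) of the 40 interferon-stimulated genes (circles) and of all genes tested (triangles) by group, with lines at the group means. The circles of the 4 OLG libraries lie between 3.01 and 3.13, under the lowest PBS (3.26) and OL (3.22) library, while the triangles of the groups overlap.

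The group mean of log2(FPKM + 1) was lowest in OLG for 26 of the 40 genes (65%), against 17.1% of all genes tested. It was highest in PBS for 23 genes (40.1% of all genes), in OL for 16 (37.8%) and in OLG for Ifi35 alone (22%), so that the list did not share a single order of PBS and OL. The lowest of the 11 libraries, of which 4 were OLG, was an OLG library for 24 genes, and for 17 of these it was OLG 4. The shares of all genes tested with these traits were not computed. Every OLG library lay below all other libraries for Isg15 and Rtp4, which 0.493% of all genes tested did. The mean over all libraries reached from 0.52 FPKM for Oas3 to 409.7 FPKM for Ifitm3.

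**Figure D3:**
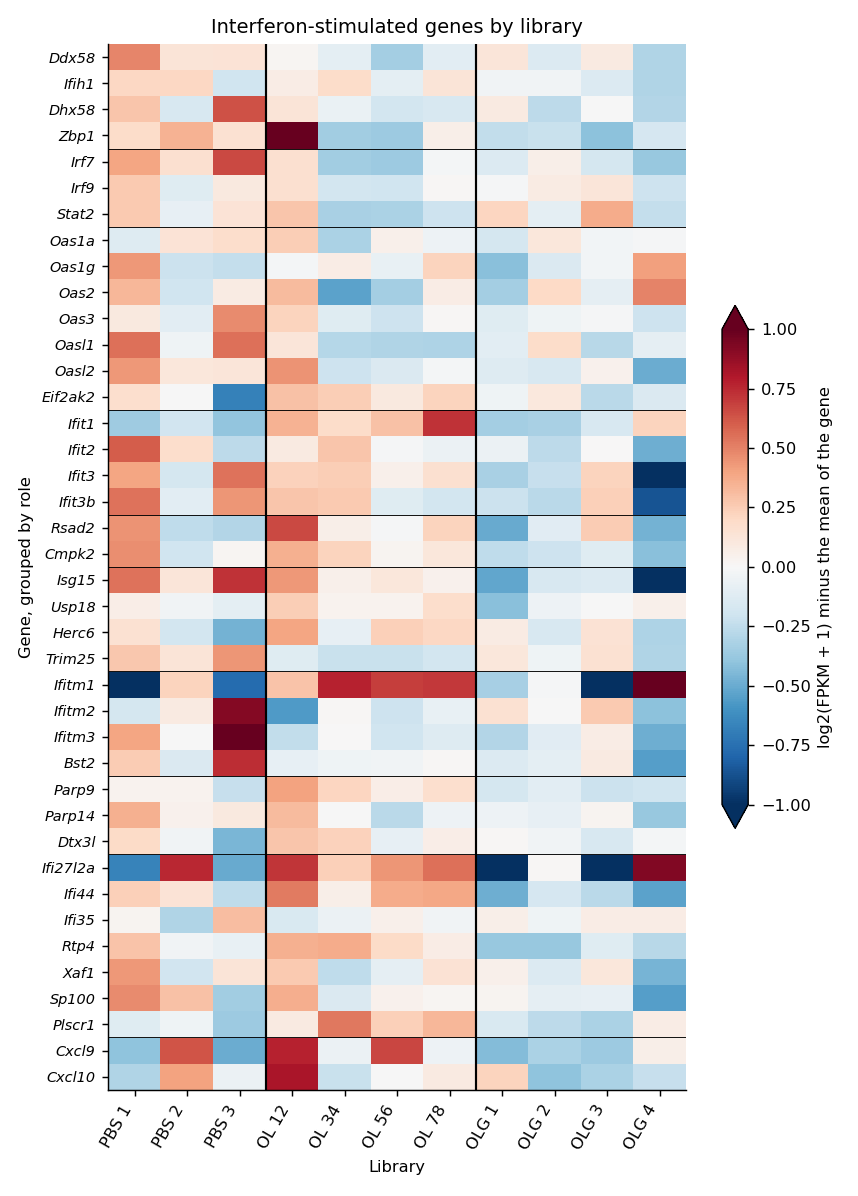
log2(FPKM + 1) of each gene (rows, grouped by role) in each library (columns) minus the mean of that gene over the 11 libraries; red is higher, blue lower, and values beyond 1 are drawn at the end of the scale. OLG columns are mostly blue, OL 12 is red for most genes, and Ifitm1 and Ifi27l2a are blue in PBS 1, PBS 3 and OLG 3 and red in OLG 4.

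To ask what GGsTop changed in the OVA/LPS airway, OLG was compared with OL. Of the 40 genes, 5 fell with GGsTop (12.5%, against 1.81% of all genes tested) and 0 rose (against 6.9%). These were Ifi44, Rtp4, Parp9, Plscr1 and Ifit1, and their OLG means were 49.8%, 66.6%, 74.1%, 72.0% and 65.0% of the OL means. In bulk tissue, fewer cells of a type and less RNA per cell cannot be told apart. At an unadjusted p under 0.05, 8 genes of the list were lower (20%, against 11% of all genes) and 0 higher (19.9% of all genes). By voom, limma's test for counts, run on the fragments recovered from the FPKM, 4 were lower (1.62% of all genes) and 0 higher. The log2 fold change was below 0 for 32 genes (46.1% of all genes), and its median over the list was -0.22, against 0.03 over all genes tested.

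Ifi44, an interferon-induced protein that limits viral replication, showed the smallest p. It measured 3.02, 2.75 and 1.85 FPKM in PBS, 3.87, 2.55, 3.41 and 3.46 in OL, and 1.43, 2.02, 1.82 and 1.34 in OLG. Every OLG library lay below every OL library, and PBS 3 lay among the OLG libraries. OLG differed from OL by -0.70 on the log2 scale (SE 0.14, adjusted p = 0.0224), from 122 to 368 fragments per library.

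Rtp4, a chaperone of membrane receptors that is also induced by interferon, separated OLG from both other groups. Its values were 13.9, 11 and 10.7 FPKM in PBS, 14.7, 14.8, 13.0 and 11.9 in OL, and 8.45, 8.44, 10.3 and 9.13 in OLG. The difference of OLG from OL was -0.54 on the log2 scale (SE 0.11, adjusted p = 0.0225).

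Plscr1, a phospholipid scramblase with antiviral activity, lay at 28.4, 30.1 and 24 FPKM in PBS, 33.2, 45.1, 36.9 and 39.4 in OL, and 27.8, 25.8, 24.8 and 32.9 in OLG. The OL libraries were above all others, although OLG 4 nearly reached OL 12. Plscr1 fell with GGsTop by 0.46 on the log2 scale (SE 0.12, adjusted p = 0.044). Ifit1, which binds viral RNA that lacks the cap methylation of the host, measured 4.27, 4.91 and 4.14 FPKM in PBS, 7.60, 6.69, 7.30 and 10.2 in OL, and 4.33, 4.38, 5.04 and 6.89 in OLG. OLG 4 overlapped the OL group, and the 3 other OLG libraries were near the PBS range. Ifit1 fell by 0.54 on the log2 scale (SE 0.15, adjusted p = 0.0467). Parp9, which with Dtx3l forms an ADP-ribosylating ubiquitin ligase complex, was at 9.84, 9.82 and 8.04 FPKM in PBS, 13.0, 11.3, 10.1 and 10.9 in OL and 8.38, 8.85, 8.10 and 8.24 in OLG. The OLG libraries were close together and below all OL libraries, and Parp9 fell by 0.39 (SE 0.10, adjusted p = 0.0369).

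Isg15 and Cmpk2 also had every OLG library below every OL library and did not pass the adjusted threshold. Together with Ifi44, Rtp4, Parp9 and Plscr1 they made 6 genes without overlap (15%, against 12.4% of all genes tested). Isg15, the ubiquitin-like modifier, was at 20.7, 15.1 and 23.4 FPKM in PBS, 19.1, 14.4, 15.1 and 14.3 in OL, and 9.35, 12.3, 12.5 and 5.38 in OLG. OLG 4 was the lowest library by a wide margin, and OLG differed from OL by -0.67 (SE 0.23, adjusted p = 0.0787). Cmpk2, a mitochondrial nucleotide kinase whose gene lies next to Rsad2, measured 8.56, 5.04 and 6.01 FPKM in PBS, 7.84, 7.08, 6.04 and 6.47 in OL and 4.80, 5.0, 5.37 and 4.19 in OLG, with -0.43 (SE 0.14, adjusted p = 0.0739).

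**Figure D4:**
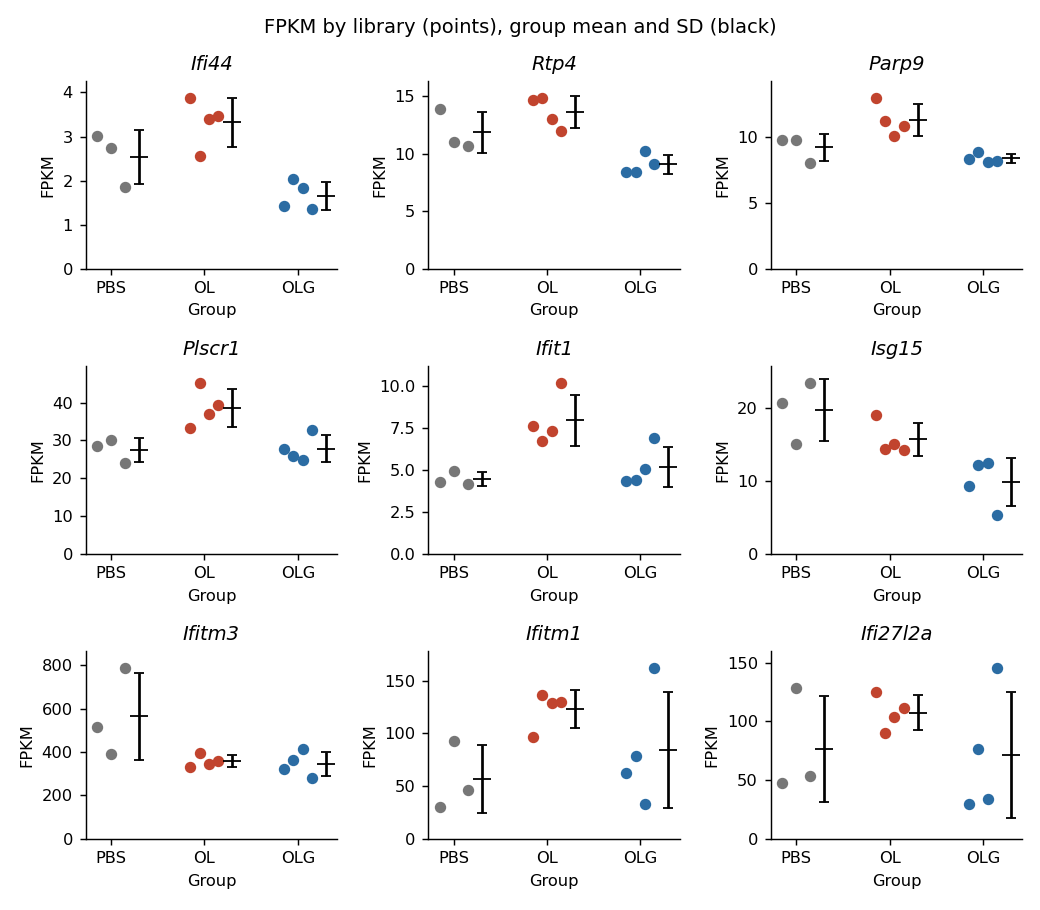
FPKM (y axis, from 0) of 9 genes in each library (points) by group, with the group mean and SD in black. Every OLG point lies below every OL point for Ifi44, Rtp4, Parp9, Plscr1 and Isg15, PBS 3 is the highest Ifitm3 library at 787 FPKM, and Ifitm1 and Ifi27l2a are spread widely in PBS and OLG.

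The 5 calls lay close to the threshold. When 1 of the 8 OL and OLG libraries was left out in turn, the number of genes lower was 4 without OLG 4 (1.34% of all genes), 3 without OL 12 (0.889% of all genes, with 27 of 38 genes below 0 against 44.6%), 1 without OL 78 (0.393%) or OLG 2 (0.372%), and 0 without OL 34 (0.114%), OL 56 (0.0715%), OLG 1 (0.0285%) or OLG 3 (0.128%), and the fold changes of the 5 genes stayed below 0 in every such fit. With array weights, which let libraries far from their group count less, 11 were lower (14.2% of all genes) and 1 higher (23.1%). After GC correction 0 were lower and 0 higher (0.157% and 0.243% of all genes), and Isg15 was at -0.79 (adjusted p = 0.106) and Cmpk2 at -0.33 (adjusted p = 0.237). The adjusted p was 0.0538 for Rtp4 (-0.56) and Parp9 (-0.36), 0.125 for Ifi44 (-0.39), 0.199 for Plscr1 (-0.27) and 0.261 for Ifit1 (-0.33). The median over the list was then -0.22 again, with 33 genes below 0. The fold changes of the 40 genes followed GC content with a Spearman coefficient of 0.48 before and -0.06 after the correction, across genes, which are not independent. Thyroid markers were high in 3 of the 4 OL libraries, and their part in the differences was not tested.

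To ask what OVA and LPS changed, OL was compared with PBS. The list did not move one way: 5 genes fell (12.5%, against 22.1% of all genes tested) and 2 rose (5%, against 15.9%). The median log2 fold change was -0.08, against -0.01 over all genes, and 24 genes were below 0 (51.1% of all genes). Marker sums of 3 tissue components did not overlap between these groups: alveolar epithelium (4 of 4 markers) was at 9636 to 15410 FPKM in PBS and 4823 to 8031 in OL, B and plasma cells (6 of 6) at 98.7 to 132 and 233 to 719, and airway smooth muscle (4 of 4) at 518 to 702 and 438 to 475. In OLG they were at 4177 to 11272, 224 to 627 and 417 to 1037 FPKM, and their part in the differences was not tested. The genes that fell were the ubiquitin ligase Trim25, the RNA sensor Ddx58 (RIG-I), the transcription factor Irf7, the oligoadenylate synthetase-like Oasl1 and the membrane protein Ifitm3, and those that rose were Ifit1 and Plscr1.

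Ifit1 rose by 0.70 on the log2 scale (SE 0.16, adjusted p = 0.00882) and Plscr1 by 0.47 (SE 0.13, adjusted p = 0.0189). Every OL library was above every PBS library for both, and likewise for Ifitm1 and Parp9, which made 4 genes (10%, against 18.7% of all genes). The same OL libraries entered the comparison with OLG given above, so that the values of these genes in the 2 comparisons are not independent. Ifitm1, which hinders fusion of viruses with the cell membrane, measured 30.5, 93.0 and 46.2 FPKM in PBS and 96.8, 136, 129 and 130 in OL, a difference of 1.25 (SE 0.46, adjusted p = 0.0514).

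Trim25, which ubiquitinates RIG-I, was at 26.8, 24.2 and 30.3 FPKM in PBS, 20.3, 18.8, 18.8 and 19.3 in OL and 23.9, 21.4, 24.7 and 17.8 in OLG. All OL libraries lay below all PBS libraries, and Trim25 fell by 0.47 on the log2 scale (SE 0.12, adjusted p = 0.014) in OL. Ddx58 itself measured 15.0, 11.5 and 11.6 FPKM in PBS, 10.6, 9.66, 8.03 and 9.61 in OL and 11.4, 9.40, 11.1 and 8.27 in OLG. It was the other gene with every OL library below PBS (2 genes, 5%, against 25.4% of all genes), with -0.38 (SE 0.14, adjusted p = 0.0476). Irf7, the factor that amplifies interferon production, was at 10.04, 8.39 and 12.3 FPKM in PBS, 8.41, 5.60, 5.53 and 7.27 in OL and 6.63, 7.74, 6.45 and 5.46 in OLG. OL 12 overlapped PBS 2, and Irf7 fell by 0.55 (SE 0.16, adjusted p = 0.024).

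Oasl1, which is known to restrain translation of Irf7, fell by 0.55 (SE 0.18, adjusted p = 0.0316), from 2.85, 1.56 and 2.86 FPKM in PBS to 1.86, 1.16, 1.13 and 1.12 in OL. Ifitm3, which blocks entry of influenza virus from endosomes, was at 518, 392 and 787 FPKM in PBS, 331, 395, 344 and 361 in OL and 321, 364, 415 and 281 in OLG. PBS 3 was the highest library and OL overlapped PBS 2, with -0.60 (SE 0.22, adjusted p = 0.0476) and -0.33 without PBS 3.

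Trim25 and Ifit1 passed whichever of the 7 libraries was left out. They were the only calls without PBS 3, with 1 gene lower (13.4% of all genes) and 1 higher (8.35%). The number lower was also 1 without PBS 1 (17.4% of all genes), OL 34 (16.5%) or OL 56 (16.2%) and 2 without OL 78 (16.6%), and the number higher was 4 without PBS 1 (14% of all genes) or PBS 2 (21.8%) and 1 without OL 34 (10.9%). After GC correction the median was -0.13, against -0.07 over all genes, and 25 genes were below 0 (57.7% of all genes). Then 4 genes were lower, namely Trim25, Ddx58, the sensor Ifih1 (MDA5) and Ifit2, and 0 higher (12.9% and 7.87% of all genes). With GC correction and without PBS 3 the counts were 0 and 0, where 1.12% of all genes were lower and 1.07% higher. With array weights 16 genes were lower (31.9% of all genes) and 4 higher (24.6%). The fold changes of Ifit1 and Plscr1 were 0.35 (adjusted p = 0.151) and 0.15 (adjusted p = 0.362) after the GC correction alone.

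The comparison of OLG with PBS asked how far the treated OVA/LPS airway differed from that of nonsensitized mice. Both limma and voom on recovered fragments called 0 genes of the list lower and 0 higher (0.821% and 2.06% of all genes tested in limma). At an unadjusted p under 0.05, 13 genes were lower (32.5%, against 9.79% of all genes) and 0 higher (10.7%). The fold change was below 0 for 33 genes (49.0% of all genes) with a median of -0.24, against 0.01 over all genes tested. Isg15 had the lowest fold change, with -0.97 (SE 0.24, adjusted p = 0.0562) and an OLG mean at 50.02% of PBS. Rtp4 was at -0.35 (SE 0.12, adjusted p = 0.14). Among the next after Isg15 were Ifitm3 with -0.67 (SE 0.22, adjusted p = 0.122), Ifit3 with -0.62, Ifit3b with -0.57 and Irf7 with -0.56 (SE 0.16, adjusted p = 0.0871).

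Every OLG library lay below every PBS library for 7 genes (17.5%, against 7.54% of all genes): Isg15, Irf7, Rtp4, Ddx58, the Z-form nucleic acid sensor Zbp1, Oasl2 and Parp14. This comparison shares OLG with the first comparison and PBS with the second. Leaving out PBS 2 gave 6 genes lower (15%, against 4.57% of all genes), leaving out OLG 3 gave 1 (Isg15, against 1.63%), and leaving out any of the other PBS or OLG libraries gave 0, where 0.0499% of all genes were lower without PBS 1, 0.121% without PBS 3, 0.0642% without OLG 1, 0.215% without OLG 2 and 0.315% without OLG 4. With array weights 17 genes were lower (8.41% of all genes). After GC correction Ifi44 was the 1 gene lower (-0.59, adjusted p = 0.0339, where 1.49% of all genes were lower), 37 genes were below 0 (58.4% of all genes) and the median was -0.31, against -0.05 over all genes.

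**Figure D5:**
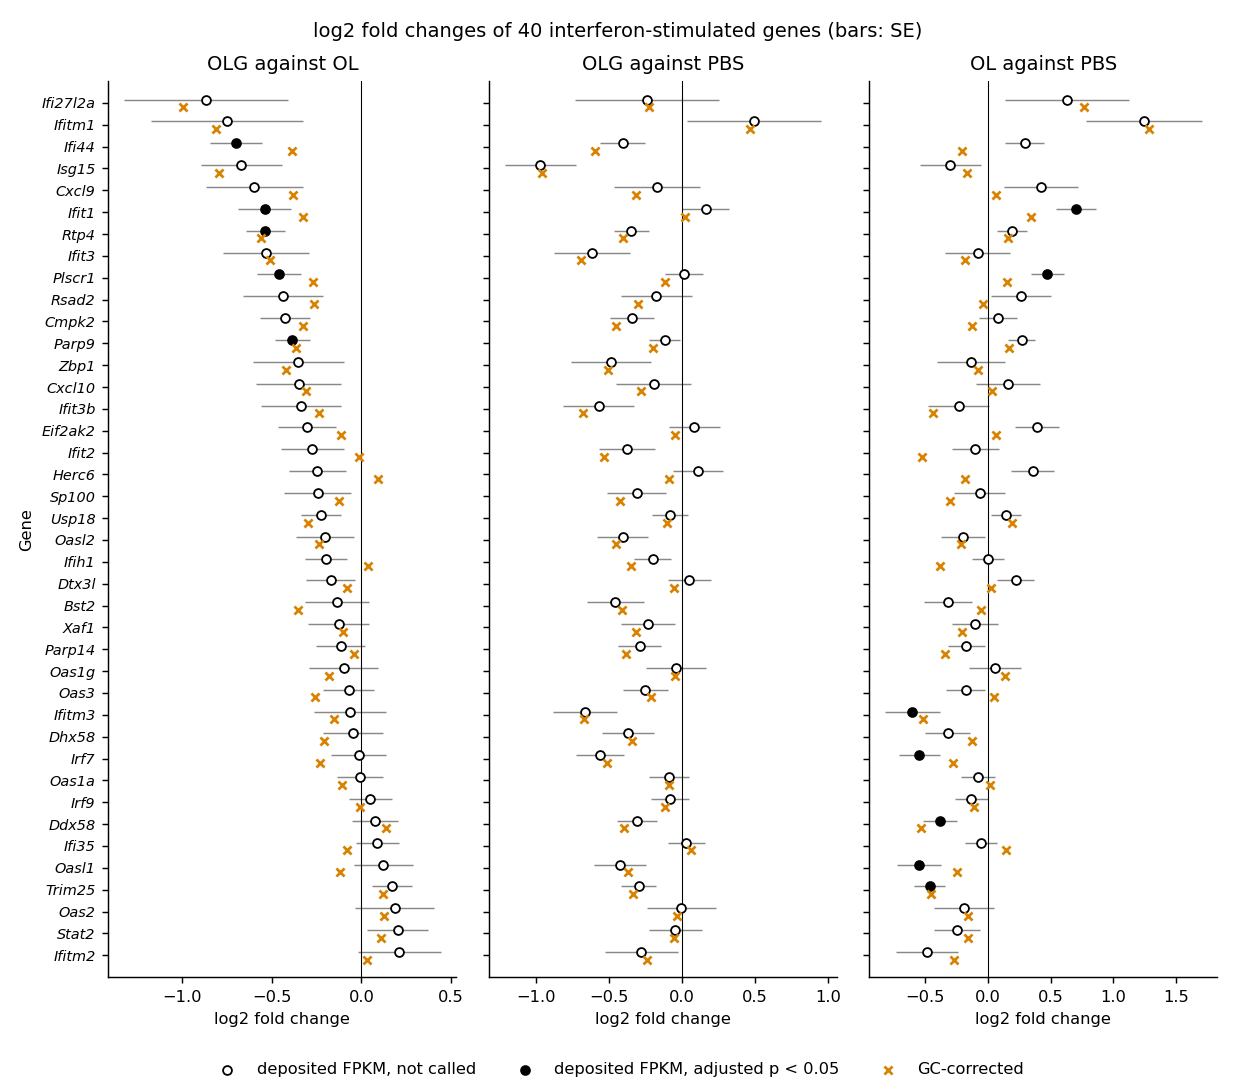
log2 fold changes (x axis) of the 40 genes (y axis, ordered by OLG against OL) in the 3 comparisons. Circles with SE bars are from the deposited FPKM, filled where the adjusted p was under 0.05, and crosses are GC-corrected. The crosses of Ifit1 and Plscr1 lie nearer to 0 than their circles in OLG against OL and in OL against PBS. For Ifi44 the cross lies nearer to 0 in OLG against OL. In OL against PBS its circle is above 0 and its cross below 0.

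Among the sensors, Ddx58 had the highest level, and Zbp1 in OL 12 stood above its group. Zbp1 was at 6.11 FPKM in OL 12 and 1.72 to 2.65 in the other OL libraries, against 1.63 to 2.13 in OLG and 2.89 to 3.45 in PBS. OL 12 also held the thymocyte markers, whose part in its Zbp1 level was not tested. Dhx58 (LGP2), which modulates the other RNA sensors, ranged from 1.67 to 4.10 FPKM, with the highest value in PBS 3. The median fold change of the 4 sensors was -0.12 in OLG against OL and -0.34 in OLG against PBS.

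The ISGF3 components Stat2 and Irf9 did not pass in any comparison. Stat2 measured 15.8, 12.2 and 14.4 FPKM in PBS, 16.0, 10.2, 10.3 and 11.1 in OL and 15.3, 12.1, 17.1 and 10.9 in OLG, with 0.20 (SE 0.17) for OLG against OL. Its groups overlapped throughout, and OLG 3 was the highest library. Irf9 stayed between 9.75 and 13.9 FPKM in all libraries. With Irf7, these factors had a median fold change of 0.05 in OLG against OL, the one role whose median was above 0 on the deposited FPKM. After GC correction it was -0.006, and no role had a median above 0.

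The oligoadenylate synthetases, which make the activator of RNase L, and the kinase PKR (Eif2ak2), which halts translation, had a median of -0.07 in OLG against OL, with 5 of 7 below 0. Eif2ak2 was at 7.41, 6.46 and 3.69 FPKM in PBS, 8.20, 7.91, 7.03 and 7.74 in OL and 6.27, 7.06, 5.22 and 5.78 in OLG. PBS 3 was the lowest library, and OLG 2 overlapped OL. Oas1a ranged from 4.80 to 7.56 FPKM, Oas2 from 2.40 to 5.92, Oasl2 from 4.29 to 9.17, Oas1g from 0.653 to 1.99 and Oas3 from 0.302 to 1.09, and none of these 5 was called.

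The IFIT genes lie close together on chromosome 19 and all 4 had a fold change below 0 in OLG against OL, with a median of -0.43. Ifit3, a partner of Ifit1 in the complex that holds viral RNA, measured 19.3, 12.7 and 21.6 FPKM in PBS, 17.1, 17.4, 15.0 and 16.3 in OL and 11.3, 12.2, 17.1 and 6.16 in OLG. OLG 3 lay inside the OL range and OLG 4 was lowest, and the difference was -0.53 (SE 0.24, adjusted p = 0.161). Its copy Ifit3b was at 3.41 to 8.49 FPKM in OLG and 6.07 to 8.74 in OL, and Ifit2, which is linked to cell death, at 4.18 to 6.26 and 5.96 to 7.78. In OL against PBS, where Ifit1 rose before but not after GC correction, the other 3 had values of -0.23 to -0.08, and those of Ifit2 without PBS 1 (0.12) and Ifit3 without PBS 3 (0.06) were above 0.

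Rsad2, whose product viperin makes a chain-terminating nucleotide, was low, at 1.1 to 2.51 FPKM in PBS, 1.55 to 3.07 in OL and 0.812 to 2.08 in OLG. Its fold change of -0.44 (SE 0.22, adjusted p = 0.205) in OLG against OL was near that of Cmpk2. In the ISG15 group, the protease Usp18, which removes ISG15 and dampens the receptor, was at 6.57 to 7.75 FPKM in OL and 4.52 to 6.66 in OLG, with -0.23 (SE 0.11, adjusted p = 0.195). Herc6, the mouse ligase for ISG15, ranged from 1.24 FPKM in PBS 3 to 3.08 in OL 12.

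Among the membrane factors, Ifitm1 stood apart from Ifitm2, Ifitm3 and Bst2. Ifitm1 measured 62.8, 78.9, 33.4 and 162 FPKM in OLG, where OLG 4 was the highest and OLG 3 nearly the lowest of all libraries, and its difference from OL was -0.75 (SE 0.43, adjusted p = 0.247). Ifi27l2a, a small mitochondrial protein, had a like pattern, with 47.3, 129 and 53.1 FPKM in PBS, 125, 89.8, 104 and 112 in OL and 30.0, 76.5, 33.7 and 145 in OLG, and -0.87 (SE 0.46, adjusted p = 0.217). Both genes were low in PBS 1, PBS 3 and OLG 3 and high in OLG 4. So were the cardiac markers, at 4.85, 18.0 and 122 FPKM in the first 3 of these libraries and 604 in OLG 4. In PBS 2 the cardiac markers (439 FPKM) and Ifi27l2a were high, while Ifitm1 (93.0 FPKM) was below every OL library. The OL libraries had cardiac markers at 185 to 296 FPKM, below PBS 2, beside Ifitm1 at 96.8 to 136 FPKM. OLG 1 and OLG 2 departed as well, with cardiac markers at 235 and 592 FPKM beside the lowest Ifi27l2a of all libraries and middle levels of both genes. Over the 11 libraries, the cardiac sum followed Ifitm1 with a Spearman coefficient of 0.65 and Ifi27l2a with 0.70, and the alveolar sum ran against them with -0.75 and -0.53. Cardiac markers were not alone in this. The sum of the plasmacytoid dendritic cell markers described below had 0.63 and 0.71, and the cartilage sum 0.45 and 0.65. The part of any of these components in the levels of both genes was not tested. Without OLG 4 the fold changes of OLG against OL were -1.14 for Ifitm1 and -1.30 for Ifi27l2a.

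Ifitm3 and Bst2 moved together across libraries. Bst2 was at 82.9, 62.5 and 116 FPKM in PBS, 65.4, 67.4, 67.8 and 69.9 in OL and 62.8, 64.6, 73.8 and 47.1 in OLG, with PBS 3 highest and OLG 4 lowest. After removal of the group means their log2 levels correlated with r = 0.95 over the 11 libraries, the highest of 780 pairs of the list, followed by Irf9 and Xaf1 (0.92) and Ifit3 and Ifit3b (0.92). Isg15 followed Ifit3 with 0.91. Ifitm1 ran against the close copies Ifit3b (-0.92) and Ifit3 (-0.91) and less so against Ifit2 (-0.54), but with Ifit1 (0.49) and Ifi27l2a (0.85). These coefficients describe libraries that share depth, GC slope and tissue content, and carry no test.

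Parp14 and Dtx3l, the neighbours of Parp9 on chromosome 16, were measured at 10.7 to 14.5 and 6.04 to 6.95 FPKM in OLG and 11.6 to 17.9 and 6.44 to 8.54 in OL. Neither was called, with -0.12 and -0.17. Of the remaining induced genes, Ifi35 ranged from 14.7 to 22.9 FPKM, and the nuclear body protein Sp100 and the apoptosis factor Xaf1 had -0.25 and -0.13 in OLG against OL. The chemokines Cxcl9 and Cxcl10, which recruit T cells through CXCR3, were the weakest signals beside Oas3. Cxcl9 was at 0.198, 1.45 and 0.125 FPKM in PBS, 1.71, 0.524, 1.52 and 0.536 in OL and 0.176, 0.274, 0.231 and 0.650 in OLG, from 7 to 80 fragments. Its groups overlapped, and its difference between OLG and OL was -0.60 (SE 0.27, adjusted p = 0.162). Cxcl10 reached 1.75 FPKM in OL 12 and was at 0.184 to 1.06 in the other libraries.

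The genes that make, receive and pass on the interferon signal were taken from a list of 40, of which 30 passed the filter. No type I or type III interferon did. Ifnb1 was listed at 0 in 10 of 11 libraries and at 0.0919 FPKM in OLG 2, Ifna5 was listed at 0 in 10, and Ifna1, Ifna2, Ifna4, Ifne, Ifnl2 and Ifnl3 in all 11. Ifng, the type II interferon, was listed at 0 in 6 libraries and did not exceed 0.308 FPKM. Ifnk, a type I interferon of epithelial cells, was listed at 0 in 5 and reached 1.07 FPKM in a PBS library. The ligands were thus mostly listed at 0 at day 25, where the depth cannot show a difference between groups.

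The receptors and kinases were well detected. In OLG against OL, 1 of the 30 genes fell (1.81% of all genes) and 2 rose (6.9%), and 0 to 2 were called when any of the 8 libraries was left out, the most without OLG 4 (1 lower and 1 higher, against 1.34% and 6.19% of all genes). Ifngr2, a chain of the interferon-γ receptor, measured 14 to 17.1 FPKM in PBS, 19.97 to 23.5 in OL and 14.8 to 16.6 in OLG, so that OL stood above both other groups. It fell with GGsTop by 0.41 (SE 0.09, adjusted p = 0.0272), and in OL against PBS it rose by 0.45 (SE 0.10, adjusted p = 0.00726). Tyk2, the kinase bound to IFNAR1, was at 6.56 to 7.98 FPKM in OL and 10.1 to 11.8 in OLG and rose by 0.53 (SE 0.14, adjusted p = 0.0449), and the factor Irf3, which starts interferon transcription, rose by 0.49 (adjusted p = 0.0458). After GC correction neither rise passed (adjusted p = 0.23 and 0.305), Ifngr2 was at -0.46 (adjusted p = 0.0538), and the 1 call was the feedback inhibitor Socs1 (-0.86, adjusted p = 0.0386).

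In OL against PBS, 9 of the 30 genes fell (against 22.1% of all genes) and 2 rose (15.9%). Without PBS 3, 5 fell and 1 rose (13.4% and 8.35% of all genes), and without OL 56, 5 fell and 2 rose (16.2% and 10.8%). Ifnar1 fell by 0.45 (SE 0.10, adjusted p = 0.00801), from 18.9 to 23 FPKM in PBS to 13.8 to 15.8 in OL, while Ifnar2 differed by -0.25 (adjusted p = 0.0955). The adaptor Myd88 fell by 0.54, the interferon-λ receptor chain Ifnlr1 by 0.58, Tyk2 by 0.68, Irf3 by 0.64, Stat3 by 0.36, the adaptor Traf3 by 0.31, the DNA sensor Tlr9 by 0.50 and the inhibitor Socs3 by 0.83, and the RNA sensor Tlr7 rose by 0.76 beside Ifngr2, with adjusted p from 0.00449 to 0.0472. After GC correction Ifnar1, Ifnlr1 and Myd88 were still lower and Ifngr2 higher, with Jak1 and Pias1 lower in addition (12.9% of all genes lower, 7.87% higher). With PBS 3 also left out the number called was 0, where 1.12% of all genes were lower and 1.07% higher. In OLG against PBS 0 of the 30 genes were called, with 3 lower without PBS 2 (4.57% of all genes), 1 lower without OLG 4 (0.315%) and 1 (Jak1, lower) after GC correction (1.49%).

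Leukocyte markers (5 of 5) summed to 158 to 198 FPKM in PBS, 146 to 240 in OL and 119 to 185 in OLG, with OL 12 highest and OLG 4 lowest, and over the libraries they followed the mean level of the 40 genes with a Spearman coefficient of 0.63. Their part in the lower OLG levels was not tested. Markers of plasmacytoid dendritic cells, the main source of type I interferon in blood (5 of 5), summed to 20 to 123 FPKM in PBS, 68.1 to 109 in OL and 45.5 to 140 in OLG, most of it Cox6a2, which muscle also expresses. Of the others, Siglech was at 1.22, 4.58 and 1.40 FPKM in PBS, 0.80 to 1.32 in OL and 0.88 to 1.38 in OLG, and Ccr9 was at 2.28 FPKM in OL 12 and at most 0.415 elsewhere. Every OLG library lay below every OL library for Tcf4 (5.49 to 7.23 against 8.09 to 9.29 FPKM) and Klk1 (0.824 to 1.66 against 1.88 to 2.93), as for 12.4% of all genes tested. The part of these markers in the lower OLG levels was not tested. Macrophage markers (6 of 6) were at 106 to 161, 118 to 229 and 158 to 236 FPKM in PBS, OL and OLG, and neutrophil markers (5 of 5) at 107 to 348, 138 to 259 and 148 to 296.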

How the data were processed

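The authors deposited FPKM, fragments divided by gene length and library total, with 1 column per library and no scaling between libraries. The submitters' processing notes name cutadapt 1.15, HISAT2 2.0.5, HTSeq 0.9.1 and the build mm39, with no role or order. Symbols, GC content and lengths came from GENCODE M21, so no gene positions are given, and promoters from RefSeq on GRCm38.p6. With these lengths 97.9% to 98.0% of values under 2000 fragments were whole within 0.05 fragments, which gave the depth.

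For 14004 genes averaging 0.5 FPKM or more, log2(FPKM + 1) entered a limma fit over all 11 libraries (limma 3.58.1, R 4.3.3, trended prior variance). Tests were two-sided, p-values were adjusted by Benjamini-Hochberg over these genes, and calls needed an adjusted p under 0.05. Fold changes understate those of low genes. For the GC correction, a natural spline on GC content with 5 degrees of freedom was subtracted in each library. The fit was tested on simulated data. The members, gene lists, roles and markers were chosen with earlier results of these data known. Genes were named where called, where highest or of smallest p in their role, or by their range, and Ifnb1, Ifng, Ifnar1, Ifnar2 and Irf3 in any case, while 1 other gene so fixed is not reported here; Usp18, Zbp1, Bst2, Rsad2, Socs1, Siglech and the other genes with single values were named after their values were seen.

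PBS 1 to 3 and OLG 1 to 3 share numbers. Deviations from the group means correlated with r = 0.367, 0.427 and 0.428 for equal numbers, all above 0.1, and these pairs were used in a fit with the number as a block. PBS 1 correlated more with OLG 3 (0.457) and PBS 2 with OLG 4 (0.637). Alternatives were another pseudocount, filter or scaling, no trend, array weights, 2 groups only, voom on recovered fragments, the GC correction and each library left out in turn. The fit of these 6 libraries without the block, and the GC correction without PBS 3, were chosen after seeing the data. Tables were made with Python 3.11.15, pandas 2.3.3 and numpy 2.4.6, and figures with matplotlib 3.10.9.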

Additional observations from a re-analysis of the deposited data

Results flagged for a closer look

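In 3 of 80 sets of a gene and a group of 4 libraries, a single library lay far from the others by Dixon's criterion, and chance flags about 1 in 20 such sets. All 3 were OL 12, the library with the thymocyte markers Rag1 (8.53 FPKM) and Dntt (13.8 FPKM). Isg15 was at 19.1 FPKM in OL 12 and 14.3 to 15.1 in the other OL libraries, Oasl1 at 1.86 against 1.12 to 1.16, and Stat2 at 16.0 against 10.2 to 11.1. OL 12 was the highest OL library for 28 of the 40 genes. Without OL 12, 3 genes of the list were lower in OLG than in OL (0.889% of all genes), the median fold change was -0.15, and 27 of 38 genes were below 0.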

How the results depend on the processing

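For 36 fold changes of single interferon-stimulated genes, 668 alternative values were computed, of which 84 lost and 28 gained the threshold. The direction turned in 3, all in OL against PBS and none for a gene called there on the deposited FPKM: Ifit2 without PBS 1 and Ifit3 without PBS 3 (ranges of -0.32 to 0.117 and -0.30 to 0.063 when 1 library was left out), and Ifit3 with GC correction and without PBS 3 (0.022). In OLG against OL, 5 genes of the list fell and 3 pathway genes were called. The counts of genes lower and of pathway genes were 3 and 1 with no minimum (1.01% of all genes lower, 3.9% higher). They were 2 and 5 at the same FPKM total (1.11% and 14.5%) and 0 and 1 after GC correction (0.157% and 0.243%). With array weights they were 11 and 10 (14.2% and 23.1%), and 1 gene of the list, Trim25, was higher. The pathway count was 1 at the same median (2.53% of all genes lower, 2.46% higher). It was 7 with 2 groups only, where 10% of all genes were lower and 15.1% higher. In OL against PBS, 5 were lower, 2 higher and 11 pathway genes called. With no minimum 3 were lower (15.9% of all genes), and with 2 groups only 2 were lower (18.6%). The same median gave 4 lower and 4 higher (20.1% and 17.9% of all genes). The same FPKM total gave 6 and 1 (32.6% and 8.8% of all genes, median of the list -0.23). Array weights gave 16 and 4 with 19 pathway genes (31.9% and 24.6% of all genes, median of the list -0.20). GC correction gave 4 and 0 with 6 pathway genes (12.9% and 7.87% of all genes). With GC correction and without PBS 3 all 3 counts were 0 (1.12% of all genes lower, 1.07% higher). In OLG against PBS, 0 genes and 0 pathway genes were called. At the same FPKM total 1 and 1 were called (1.74% of all genes lower, 1.79% higher). With array weights 17 and 7 were called (8.41% and 9.85%), and after GC correction 1 and 1 (1.49% and 2.77%). The replicate block gave 0 genes (0.114% of all genes lower, 0.328% higher), as did the same 6 libraries without it (0.0214% and 0.0785%). With GC correction the block gave 1 gene, Ifi27l2a (1.0% of all genes lower, 1.88% higher). Ifi44, called after GC correction over all libraries, was not called there. The causes were not tested. The same FPKM total moved the median of all genes to 0.11 in OLG against OL and -0.15 in OL against PBS, and the median of the list lay 0.24 and 0.08 below these. Leaving out 1 library gave 0 to 4 genes lower and 0 to 2 pathway genes in OLG against OL, 1 to 7 lower, 1 to 4 higher and 6 to 13 pathway genes in OL against PBS, and 0 to 6 lower and 0 to 3 pathway genes in OLG against PBS, with medians of -0.26 to -0.15, -0.13 to -0.01 and -0.32 to -0.19. Of all genes, 0.0285% to 1.34% were then lower and 0.143% to 6.19% higher in OLG against OL. In OL against PBS these shares were 13.4% to 24.2% and 8.35% to 21.8%. For OLG against PBS they were 0.0499% to 4.57% and 0.15% to 6.78%. Depth limits the interferons, Cxcl9, Cxcl10 and Oas3.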
